A study of Mus musculus with 10 samples.

Results

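The genes described here are 9 components of the cadherin-catenin adhesion complex in the mouse enamel organ: the cadherins Cdh1, Cdh2, Cdh3, Cdh6 and Cdh11, the catenins Ctnna1, Ctnnb1 and Ctnnd1, and vinculin (Vcl). They were taken by gene symbol from 17305 genes listed in either of 2 deposited tables, and all 9 were listed in both. The family was picked with earlier results of these data known. Those results ranked Cdh6 among the genes that differed most between claudin-10 knockout (KO) and wild-type (WT) ameloblasts. The members' KO and WT values in ameloblasts and the balance of Cdh1, Cdh2, Cdh3 and Cdh6 are therefore given as descriptions with no test.

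RNA was sequenced from 10 libraries of mouse hemi-mandible, captured by laser from frozen sections. Ameloblasts, the epithelial cells that secrete enamel, were collected from 2 WT and 3 claudin-10 KO samples. Stratum intermedium, the epithelial layer that lies against the ameloblasts, was likewise collected from 2 WT and 3 KO samples. The labels give the genotype as WT or KO for claudin 10 and name no other allele, transgene or treatment. Age, sex, strain, the deleted part of the gene, pooling of animals and the enamel stage of the captures are not stated there. Library names carry the prefixes WT10, WT5, KO1, KO3 and KO9 in both cell types. Each prefix was taken to mark 1 mouse, which the labels do not state. Library names also end in an unexplained group number, which is 2 for WT10 and KO9, 1 for WT5 and KO3 and 3 for KO1.

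Classical cadherins are single-pass membrane proteins whose outer domains bind cadherins of the neighbouring cell in the presence of calcium. Their inner tails bind p120-catenin, which holds the cadherin at the membrane, and beta-catenin, which recruits alpha-catenin and through it actin. Vinculin joins alpha-catenin when the junction is under tension. E-, N- and P-cadherin (Cdh1, Cdh2 and Cdh3) are type I cadherins, and Cdh6 and Cdh11 are type II. In the enamel organ, E-cadherin joins the epithelial layers and N-cadherin is known from differentiating ameloblasts. Beta-catenin also carries Wnt signals to the nucleus.

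The targeted gene and the captures were checked first. Cldn10, at 2365 and 7257 normalized counts in the WT stratum intermedium, lay between 387.1 and 1003 in the 3 KO libraries. In ameloblasts it was 600.1 and 751.8 in WT and between 148.7 and 407.8 in KO. Ameloblast markers, led by Amelx, made up 2.18% to 9.12% of the counts of an ameloblast library (8 of 9 listed) and 0.123% to 0.942% of a stratum intermedium library (9 of 9). Klk4 and Wdr72 were at 0 in at least 1 ameloblast library. Stratum intermedium and papillary layer markers (10 of 10) made up 0.177% to 0.498% of the stratum intermedium libraries, 0.0834% and 0.107% of the WT ameloblasts and 0.139% to 0.219% of the KO ameloblasts. Odontoblast and pulp markers (7 of 7) made up 2.59% to 4.42% of the ameloblast and 1.76% to 4.72% of the stratum intermedium libraries, so RNA of other tissue was counted in every library. Col1a1 and Col1a2 led that sum, at 49.0% and 34.5% of it in ameloblasts and 50.8% and 43.0% in stratum intermedium. Its members were not alike in both layers. Dspp was higher in ameloblasts by a mean log2 value of 1.87 in WT and 3.39 in KO. The others were higher there by less, except Col1a2 in KO (−0.06). The WT10 libraries had 706 and 854 listed genes at 0 in ameloblasts and stratum intermedium, against 33 and 36 in the WT5 libraries. The KO libraries lay between, with 224 and 633 in KO1, 420 and 210 in KO9 and 41 and 109 in KO3. WT5 and KO3, which share group number 1, thus had the fewest in both cell types. WT10 and WT5 also differ in group number, so library and group cannot be told apart in that contrast. Xist and Y-linked genes marked KO1 and KO3 as female and WT10, WT5 and KO9 as male, so sex differs between the genotypes. Any KO-WT difference with sex as a covariate therefore rests on KO9 alone against both WT libraries. In such bulk captures, fewer cells of a type and less RNA per cell cannot be told apart.

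Cdh1, the E-cadherin of epithelia, had the highest level per kb of exons of the 5 cadherins in each ameloblast library. In WT5 that rank depended on the length used. By the longest transcript (4430 bp for Cdh1, 5647 bp for Cdh11) or the coding length (2652 and 2388 bp), Cdh11 would be above Cdh1 there. Cdh1 was at 17564 normalized counts in WT10, 18960 in KO1, 12857 in KO3 and 15513 in KO9. The library of WT5 stood apart at 4716. In stratum intermedium it was 6362 in WT10, 4138 in WT5, 4867 in KO1, 4467 in KO3 and 2965 in KO9. The groups overlapped in both cell types. The mean log2 difference between KO and WT ameloblasts was 0.78 (SE 0.525). It became −0.17 without WT5 and 1.72 without WT10. The summed counts of the general epithelium list were also lowest in WT5, at 0.151% of the ameloblast counts against 0.611% in WT10 and 0.369% to 0.397% in KO. That list holds epithelial keratin and adhesion genes (Krt14, Krt5 and 6 others, 8 of 8 listed) and was added after the values were seen. Krt14 and Krt5 made up a mean of 57.2% and 27.7% of its sum in ameloblasts. Relative to the summed counts of that list, Cdh1 was 13.8% in WT5, 11.9% in WT10 and 15.1% to 18.5% in KO ameloblasts. The low value in WT5 was shared with that sum, and the part of these markers in the group difference was not tested.

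Cdh3, the P-cadherin of basal epithelia, showed the same low WT5 library. It was 2847 in WT10 and 836.9 in WT5, with 1898 in KO1, 2267 in KO3 and 3456 in KO9 ameloblasts. In stratum intermedium it was 2708 in WT10, 1344 in WT5, 2278 in KO1, 1557 in KO3 and 2107 in KO9. WT5 was lowest in both cell types and the groups overlapped in both. The log2 difference in ameloblasts was 0.67 (SE 0.525), with −0.21 without WT5, 1.55 without WT10 and 1.16 with sex as a covariate. On the GRCm38 build Cdh3 lies on chromosome 8 from 106510891 to 106557297 and Cdh1 from 106603351 to 106670246, both on the plus strand and 46053 bp apart. Across the 10 libraries, centred within each table, Pearson's r of the pair was 0.77, a value that rests on shared libraries and is given as a description.

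Cdh2, N-cadherin, was the least variable cadherin in ameloblasts, with 3894 in WT10, 4541 in WT5, 5295 in KO1, 4788 in KO3 and 4634 in KO9. Every KO library was above both WT libraries, by a log2 difference of 0.22 (SE 0.208) between the means. Its coefficient of variation of 10.9% was at the 4.49th percentile of all genes of the ameloblast table, whose median was 32.7%. In stratum intermedium Cdh2 was 2692 in WT10, 5867 in WT5, 2604 in KO1, 3320 in KO3 and 2470 in KO9. There WT5 was high and WT10 lay among the KO libraries, so the groups overlapped.

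Cdh6, the type II cadherin K-cadherin, was the member whose WT and KO ameloblasts lay farthest apart. It was at 297.0 in WT10 and 409.5 in WT5, and at 1014 in KO1, 1949 in KO3 and 1200 in KO9. The lowest KO library was above the highest WT library. The log2 difference was 1.93 (SE 0.354), and between 1.66 and 2.16 when any 1 library was left out. It was 1.78 with sex as a covariate, which sets KO9 alone against WT. With the library group number as a term it was 2.13, the same value as without KO1. In stratum intermedium the same gene was 4125 in WT10, 1040 in WT5, 1903 in KO1, 1254 in KO3 and 1916 in KO9, so that the WT libraries were the highest and the lowest. The summed share of the stratum intermedium and papillary layer markers was also higher in every KO than in both WT ameloblast libraries. It was 0.0834% and 0.107% in WT and 0.184%, 0.219% and 0.139% in KO1, KO3 and KO9. Unlike Cdh6, the share was lower in KO9 than in KO1. Alpl and Krt17 made up a mean of 36.6% and 35.5% of that sum. Hey2, Krt17, Dsc3, Jag1 and Cldn1 had all KO libraries above both WT libraries, while Alpl, Nrarp, Sostdc1, Notch1 and Hes1 overlapped. As a percentage of the summed counts of those markers Cdh6 was 1.47% in WT10 and 1.7% in WT5, 2.05% in KO1, 3.85% in KO3 and 3.89% in KO9. Both WT ameloblast values by that measure were below the KO values. In stratum intermedium the range was 2.44% to 3.94% in WT and 1.76% to 3.34% in KO. As a percentage of the general epithelium list the ameloblast groups overlapped, with 0.201% in WT10, 1.2% in WT5, 0.951% in KO1, 2.29% in KO3 and 1.43% in KO9. Red blood cell markers (5 of 5) separated the genotypes in ameloblasts too, at 0.244% in WT10 and 1.28% in WT5 against 0.0814% in KO1, 0.144% in KO3 and 0.093% in KO9. The part of any of these markers in the Cdh6 difference was not tested.

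The sequence before the start of Cdh6 is shown beside that of Ctnnb1, as the member that varied most and a member that varied little. Of the 9 members, 4 had entries in the promoter table used. Both sequences are from RefSeq on GRCm38.p6, 250 bases before the annotated start, written in the direction of transcription. Capitals mark GC boxes (GGGCGG on either strand) and CCAAT boxes (CCAAT on either strand). Cdh6 is from chr15:13173676-13173925 on the minus strand and the first of 2 Ctnnb1 entries from chr9:120933150-120933399 on the plus strand.
Cdh6: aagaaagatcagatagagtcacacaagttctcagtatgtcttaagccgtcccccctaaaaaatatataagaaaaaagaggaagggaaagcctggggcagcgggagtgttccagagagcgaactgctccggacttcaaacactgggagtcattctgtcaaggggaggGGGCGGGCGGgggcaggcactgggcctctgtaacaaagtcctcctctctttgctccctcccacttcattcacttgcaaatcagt
Ctnnb1: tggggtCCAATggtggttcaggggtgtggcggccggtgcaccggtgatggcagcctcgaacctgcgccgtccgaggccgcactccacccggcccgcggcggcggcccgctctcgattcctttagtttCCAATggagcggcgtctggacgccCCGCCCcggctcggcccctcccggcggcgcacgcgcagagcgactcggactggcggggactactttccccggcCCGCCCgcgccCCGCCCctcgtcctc

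The Cdh6 sequence had 51.2% GC and 6 CpG pairs, close to the medians of 52.4% and 6 over the 32851 promoters of that table. It held 2 overlapping GC boxes, at 84 and 80 bases before the start. The Ctnnb1 sequence had 74.8% GC, 35 CpG pairs, 3 GC boxes and 2 CCAAT boxes. A GC box is found in 32.7% of all promoters of that length and a CCAAT box in 33.8%, with both strands searched. Neither sequence held the Snail and Zeb E-box CAGGTG, which 17.2% of all promoters hold. These are matches of letters and say nothing of binding.

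Cdh11, a type II cadherin of mesenchyme, was at 5100 in WT10, 6768 in WT5, 3720 in KO1, 5849 in KO3 and 5880 in KO9 ameloblasts. In stratum intermedium it was 10660 and 10253 in WT10 and WT5, and 7329, 11357 and 13980 in KO1, KO3 and KO9. Genotype groups overlapped in both. Its log2 difference was −0.22 (SE 0.287) in ameloblasts, −0.43 without WT10, −0.02 without WT5 and 0.00 with sex as a covariate. Fibroblast and mesenchyme markers (8 of 8) made up 0.309% to 0.723% of WT and 0.435% to 0.558% of KO ameloblast counts, and 0.461% to 0.812% and 0.758% to 0.881% of WT and KO stratum intermedium counts. The stratum intermedium libraries were all above the ameloblast libraries for Cdh11, in tables that were normalized separately. The marker share was also higher in stratum intermedium in all 5 prefixes: 0.461% against 0.309% in WT10, 0.812% against 0.723% in WT5, 0.758% against 0.435% in KO1, 0.881% against 0.558% in KO3 and 0.82% against 0.504% in KO9. Col3a1 led that sum, at 25.6% of it in ameloblasts and 40.3% in stratum intermedium. Dcn of the same list went the other way, higher in ameloblasts by a mean log2 value of 0.75 in WT and 0.58 in KO, and Postn by 0.06 in WT alone. Osteoblast and bone markers were lower in stratum intermedium in WT10 (1.79% against 2.59%) and KO9 (3.05% against 4.26%), and higher in WT5, KO1 and KO3. The part of the markers in the Cdh11 values was not tested.

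**Figure D1:**
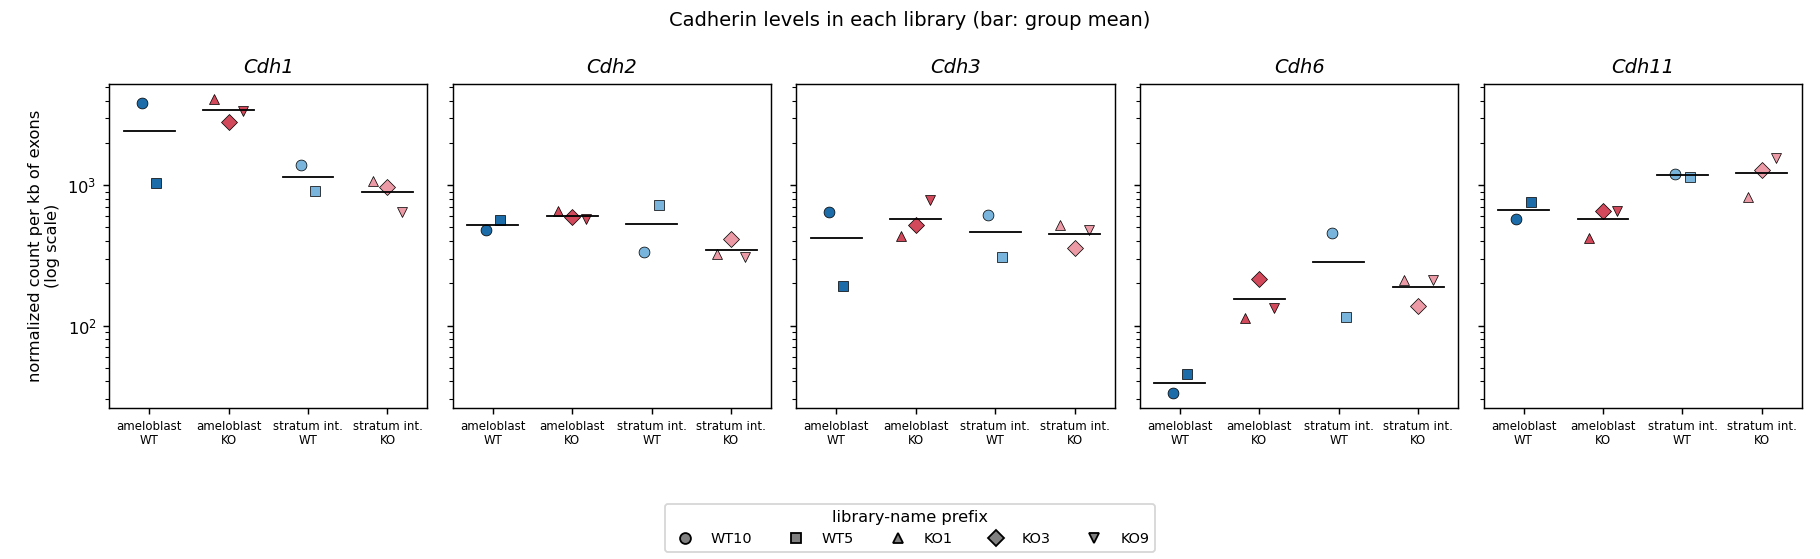
Normalized counts per kb of exons (log scale) of the 5 cadherins in each library, grouped by cell type and genotype, with bars at group means and symbols for library-name prefix. Cdh6 in ameloblasts is above both WT libraries in every KO library, and the WT5 ameloblast library is low for Cdh1 and Cdh3.

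To compare different genes, counts were divided by the length of each gene's exons, taken over all its transcripts. The order below depends on that choice. The longest transcript is 4843 of 8066 bp for Cdh2, 5647 of 8904 bp for Cdh11 and 3623 of 5192 bp for Ctnnb1. For Cdh1 it is 4430 of 4574 bp and for Cdh3 all 4384 bp. By the longest transcript, Cdh3 would fall below Cdh2 and Cdh11 in ameloblasts. Cdh11 would stand farther above Cdh1 in stratum intermedium. Per kb, the mean levels in the 5 ameloblast libraries ran from Cdh1 at 3044 (SD 1230) and Ctnnb1 at 3038 (SD 490), which could not be told apart, through Ctnna1 at 819.9 (SD 130), Cdh11 at 613.6 (SD 128), Cdh2 at 574.0 (SD 62.5) and Cdh3 at 515.7 (SD 226), down to Ctnnd1 at 291.5 (SD 35.3), Cdh6 at 107.9 (SD 74.0) and Vcl at 66.06 (SD 20.4). By exon length, Cdh11, Cdh2 and Cdh3 lay within 1 SD of each other. The order of the last pair differed by genotype: Cdh6 was at 39.15 (SD 8.82) and Vcl at 62.22 (SD 9.23) in WT ameloblasts, with Cdh6 lower in both libraries, against 153.8 (SD 54.9) and 68.62 (SD 27.6) in KO. In stratum intermedium Ctnnb1 came first at 2876 (SD 129), followed by Cdh11 at 1203 (SD 268) and Cdh1 at 996.9 (SD 269), whose spreads overlapped. Ctnna1 followed at 751.1 (SD 29.8). Cdh3 at 455.9 (SD 126) and Cdh2 at 420.3 (SD 176) again overlapped, as did Cdh2 and Ctnnd1, at 338.0 (SD 28.6). Cdh6 at 226.9 (SD 136) and Vcl at 137.7 (SD 42.7) were lowest.

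Within a library, the shares of Cdh1, Cdh2, Cdh3 and Cdh6 in their summed level per kb do not depend on the scaling of the table. In ameloblasts, Cdh1 made up 76.7% in WT10, 56.3% in WT5, 77.5% in KO1, 67.9% in KO3 and 69.4% in KO9. In stratum intermedium its share was 49.7% in WT10, 44.0% in WT5, 50.3% in KO1, 51.9% in KO3 and 39.4% in KO9. All 5 ameloblast shares were above all 5 stratum intermedium shares. Cdh6 was the reverse, with 0.658%, 2.48%, 2.1%, 5.22% and 2.72% in ameloblasts against 16.3%, 5.61%, 9.96%, 7.38% and 12.9% in stratum intermedium (WT10, WT5, KO1, KO3, KO9). The Cdh6 shares met when other gene lengths were used. With the longest transcript KO3 ameloblasts were at 5.14% and WT5 stratum intermedium at 4.94%, and with the coding length at 9.85% and 9.33%. With Cdh11 in the sum they were at 4.51% and 3.59%. The Cdh1 shares of the cell types stayed apart under these 3 choices. The Cdh3 share was 12.0% (SD 3.00, n = 5) in ameloblasts and 21.9% (SD 5.42, n = 5) in stratum intermedium. The Cdh2 share was 15.8% (SD 8.55) and 20.6% (SD 9.07), and WT5 was highest in both, at 30.8% and 35.4%. The WT and KO libraries overlapped for all 4 shares in both cell types. The Cdh1 share was 66.5% (SD 14.4, n = 2) in WT and 71.6% (SD 5.17, n = 3) in KO ameloblasts, and 46.9% (SD 3.99) and 47.2% (SD 6.81) in stratum intermedium. The Cdh6 share of 1.57% (SD 1.29) in WT and 3.35% (SD 1.65) in KO ameloblasts overlapped between groups, since WT5 lay above KO1. The ratio of Cdh1 to Cdh2 per kb was 7.95 in WT10 and 1.83 in WT5, with 6.32, 4.74 and 5.9 in KO1, KO3 and KO9 ameloblasts. Counting Cdh11 in the sum gave Cdh1 63.9% in KO ameloblasts and 29.1% in KO stratum intermedium. 

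**Figure D2:**
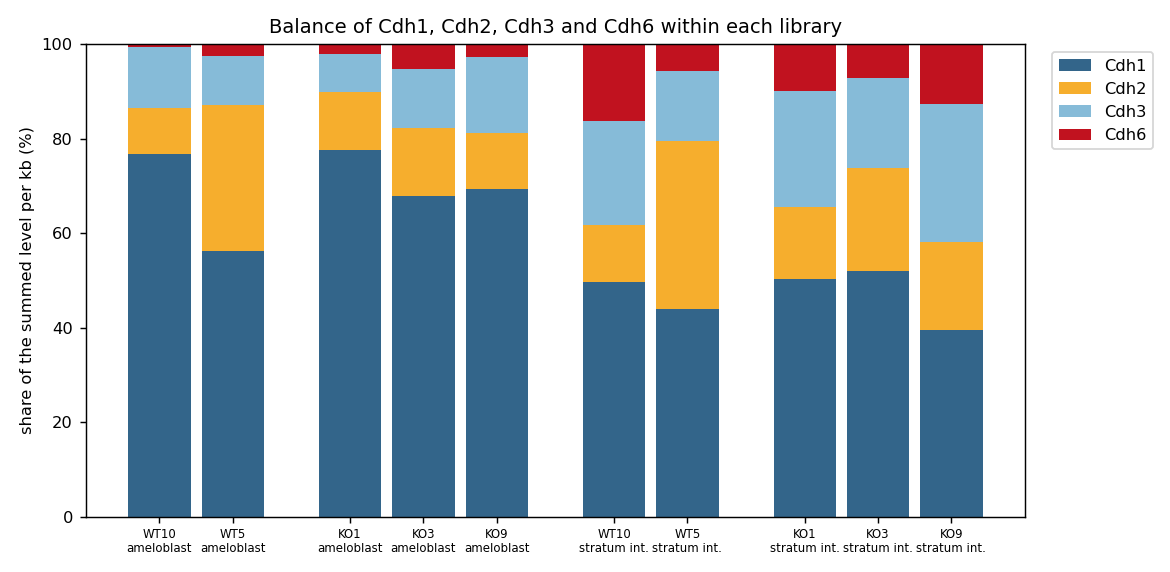
Stacked bars giving the percentage of Cdh1, Cdh2, Cdh3 and Cdh6 in their summed normalized count per kb, 1 bar per library, grouped by cell type and genotype. Cdh1 takes 56.3% to 77.5% of the sum in ameloblasts and 39.4% to 51.9% in stratum intermedium.

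The layers were compared within each prefix as the log2 value in ameloblasts minus that in stratum intermedium. The tables were normalized separately, so a constant shift between them is not known, and the median over 15567 genes was −0.151. Cdh1 was higher in ameloblasts in 5 of 5 prefixes (mean 1.51, SD 0.825, the 97.7th percentile of all genes), as were 5.93% of all genes. The values were 1.47 in WT10, 0.19 in WT5, 1.96 in KO1, 1.53 in KO3 and 2.39 in KO9. The general epithelium share was also higher in ameloblasts in all 5 prefixes, at 0.611% against 0.441% in WT10, 0.151% against 0.121% in WT5, 0.397% against 0.324% in KO1, 0.369% against 0.184% in KO3 and 0.378% against 0.163% in KO9, and its part in the Cdh1 values was not tested. Cdh11 was lower in ameloblasts in 5 of 5 prefixes (mean −0.97, SD 0.237), as were 18% of all genes. Cdh2 was higher in 4 of 5 (0.52, SD 0.547), the exception being WT5. Cdh6 was lower in 4 of 5 (−1.22, SD 1.62), the exception being KO3 at 0.64. Its values in WT10 and WT5 were −3.79 and −1.34, and in KO1 and KO9 −0.91 and −0.67. Vcl was lower in 4 of 5 (−1.05, SD 0.772), the exception being KO9. Ctnnd1 was lower in 5 of 5 by a mean of only −0.22 (SD 0.143), and in 3 of 5 when the tables were rescaled by median ratios over the genes of both. The means of Cdh2 and Cdh6 were within 1 SD of 0, as were those of Cdh3 (0.08), Ctnna1 (0.11) and Ctnnb1 (0.06). Those of Cdh3 and Ctnnb1 became −0.02 and −0.03 when each library was scaled to its sum over the genes listed in both tables. The median over all genes was −0.221 with scaling to the sum and −0.00934 by median ratios.

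**Figure D3:**
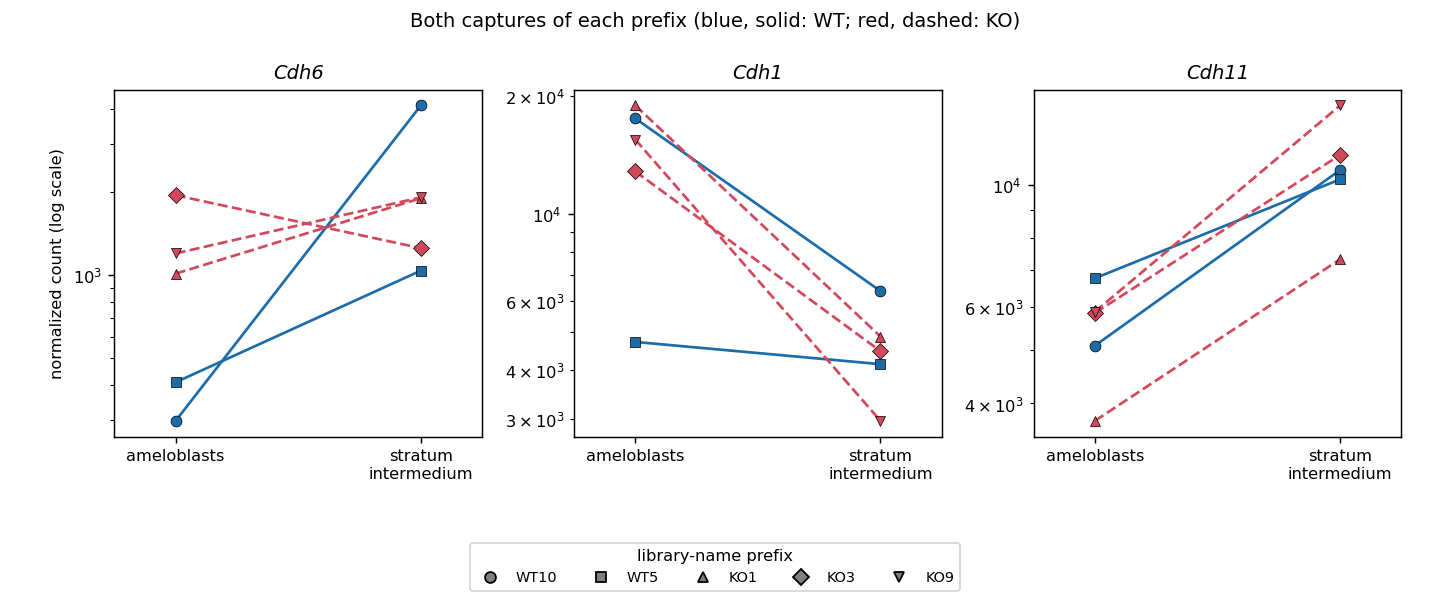
Normalized counts (log scale) of Cdh6, Cdh1 and Cdh11 in ameloblasts and stratum intermedium, with a line joining both captures of each prefix, blue and solid for WT and red and dashed for KO. Cdh1 falls and Cdh11 rises toward stratum intermedium in 5 of 5 prefixes, while the lines of Cdh6 rise in both WT prefixes and in 2 of the 3 KO prefixes.

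KO and WT stratum intermedium were compared with limma on log2(normalized count + 1), since the members were not chosen on that contrast. No gene of 16543 passed the threshold of 0.05 after Benjamini-Hochberg adjustment (0% of all genes, smallest adjusted p 0.404). Without adjustment, 210 genes were higher in KO and 130 lower at a p under 0.05, that is 1.27% and 0.786%. None of the 9 members was among them. Mean log2 values were higher in KO for 2 members and lower for 7. The members' median log2 difference was −0.103, against 0.0174 over all genes. Ctnnb1 had all KO libraries below both WT libraries, and no member had all above. Of all genes, 7.44% lay below and 7.76% above in this way. Cdh1 had a log2 difference of −0.36 (SE 0.287, 95% interval −1.03 to 0.32; −0.67 without WT5, −0.05 without WT10), and Cdh2 one of −0.52 (SE 0.336, interval −1.31 to 0.27). Cdh6 had −0.32 (SE 0.538, interval −1.58 to 0.94). The adjusted p of each was near 1, so none of these differed detectably with 2 and 3 libraries. The WT libraries decided both of the latter. The Cdh2 difference was 0.04 without WT5 and −1.08 without WT10 (unadjusted p = 0.00445 by limma, adjusted 0.999). The Cdh6 difference was 0.67 without WT10 and −1.31 without WT5 (unadjusted p = 0.00538 by limma, adjusted 0.250). Cdh3 and Cdh11 had 0.04 (SE 0.333) and 0.01 (SE 0.276).

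In ameloblasts the same fit is given as a description. None of 16212 genes passed after adjustment (0%, smallest adjusted p 0.989). Higher in KO with an unadjusted p under 0.05 were 2.25% of all genes and lower 0.82%. Of the 9 members, Cdh6 alone was among them, joined by Cdh3 with the library group number as a term and by Cdh1 and Cdh3 without WT10. Cdh6 and Cdh2 had all KO libraries above both WT libraries, as had 9.09% of all genes, and no member had all below, as had 9.26%. Mean log2 values were higher in KO for 6 members and lower for 3, with a median log2 difference of 0.0911 against 0.0351 over all genes. The rule used this contrast, so nothing is read from these counts.

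The KO-WT difference was also set between the cell types, by limma on the paired layer values. The variance trend of this fit ran on the mean layer difference of each gene, not on its mean level. The ameloblast difference is part of this contrast, so the members' values are again descriptions. No gene of 15567 passed after adjustment (0%, smallest adjusted p 0.263). Unadjusted, 2.57% of all genes had a KO-WT difference higher in ameloblasts and 2.23% one lower, with a p under 0.05. None of the members was among them in this fit, but Cdh6 was with the library group number as a term, with library weights, with a mean of at least 50, with a pseudocount of 8 and without WT5. Cdh2 was among them without WT10, and Cdh1 and Cdh6 with a variance trend on the mean level, a setting added after seeing the data. Nothing is read from these counts. Cdh1 and Cdh6 had layer values that were higher in every KO prefix than in both WT prefixes, as had 10.9% of all genes, and no member had the reverse, as had 11.5%. The difference between the cell types was 2.25 for Cdh6 (SE 0.930, 95% interval −0.11 to 4.62), 1.13 for Cdh1 (SE 0.674, interval −0.59 to 2.85), 0.74 for Cdh2 (SE 0.405) and 0.64 for Cdh3 (SE 0.444). For the other 5 members it was between −0.23 and 0.15. With the variance trend on the mean level the SE was 0.752 for Cdh6 and 0.415 for Cdh1. The differences depended on the WT prefixes. Without WT10 they were 1.03 for Cdh6, 1.77 for Cdh1, 1.19 for Cdh2 and 1.01 for Cdh3. Without WT5 they were 3.48, 0.49, 0.29 and 0.26.

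Alpha-catenin, beta-catenin and p120-catenin were the steadiest members in stratum intermedium. Ctnna1 was 4760 in WT10, 5066 in WT5, 4977 in KO1, 4598 in KO3 and 4729 in KO9, a coefficient of variation of 3.96%, and 0.302% of all genes varied as little. Ctnnb1 was 15506, 15637, 14488, 14983 and 14053 in the same order (4.49%, the 0.459th percentile), and Ctnnd1 was 2844, 2358, 2427, 2348 and 2393 (8.46%, the 3.86th percentile). The median over all genes was 30.2%. Their log2 differences between KO and WT there were −0.04 (interval −0.43 to 0.35), −0.10 (interval −0.47 to 0.26) and −0.12 (interval −0.56 to 0.32).

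In ameloblasts the catenins varied more. Ctnna1 was 6248 in WT10, 4030 in WT5, 5552 in KO1, 4928 in KO3 and 5581 in KO9 (15.8%). Its pattern was the closest to that of Cdh1 among the members (r = 0.82 over 10 libraries centred within each table). Ctnnb1 was 18574 in WT10, 15184 in WT5, 11783 in KO1, 16348 in KO3 and 16973 in KO9 (16.1%), and Ctnnd1 was 2467, 2203, 1768, 2023 and 2206 in the same order (12.1%). KO1 was the lowest for both, and the pair had r = 0.79. Their log2 differences between KO and WT were 0.09 (SE 0.254), −0.18 (SE 0.261) and −0.23 (SE 0.221). The genotypes overlapped for all 3. Ctnna1 changed direction with the WT library left out, at −0.23 without WT5 and 0.41 without WT10. Ctnnb1 was −0.32 without WT5, −0.01 without KO1 and 0.02 with sex as a covariate, and Ctnnd1 was −0.08 with sex.

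Vcl, which ties alpha-catenin to actin, was 563.1 in WT10, 456.2 in WT5, 368.4 in KO1, 506.8 in KO3 and 810.8 in KO9 ameloblasts. In stratum intermedium it was 1533, 817.5, 1409, 1139 and 740.5. KO9 was the highest in ameloblasts and the lowest in stratum intermedium, and the genotypes overlapped in both. The log2 differences were 0.07 (SE 0.388) and −0.08 (SE 0.376). In ameloblasts the value was −0.23 without KO9, 0.34 without KO1 and 0.68 with sex as a covariate.

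**Figure D4:**
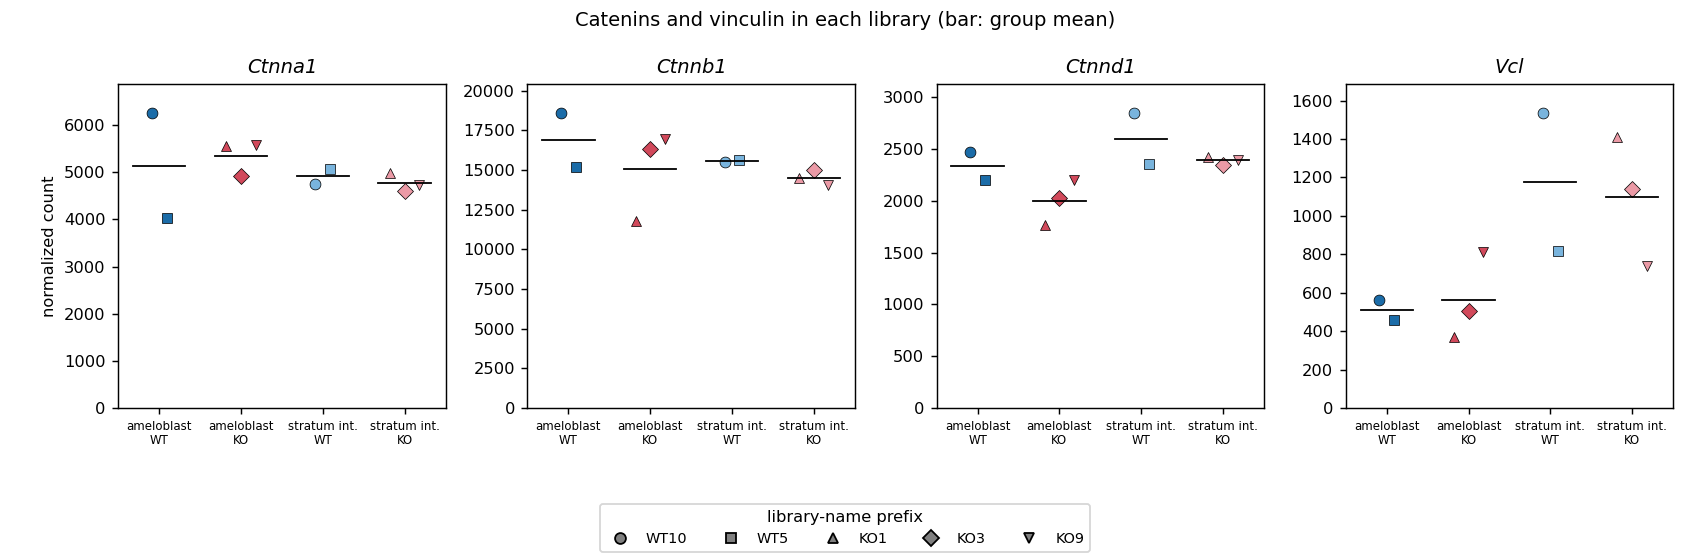
Normalized counts of Ctnna1, Ctnnb1, Ctnnd1 and Vcl in each library, grouped by cell type and genotype, on linear axes that start at 0, with bars at group means. The 3 catenins cluster tightly in stratum intermedium, while Vcl is lower in ameloblasts in all prefixes but KO9.

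The positions of the other members on GRCm38 were taken from the annotation. Cdh6 lies on chromosome 15 from 13028701 to 13173675 (minus strand) and Cdh11 on chromosome 8 from 102632095 to 102785642 (minus). Ctnnb1 is on chromosome 9 from 120929216 to 120960507 (plus), Ctnnd1 on chromosome 2 from 84600071 to 84650765 (minus) Vcl on chromosome 14 from 20929398 to 21033676 (plus), Cdh2 on chromosome 18 from 16588877 to 16809246 (minus) and Ctnna1 on chromosome 18 from 35118859 to 35254779 (plus). Listed genes overlap Ctnnb1 (Ulk4), Ctnna1 (Lrrtm2), Vcl (Ap3m1) and Cdh11 (Gm45257 and Gm45258). The strand setting of the counting is not given, so reads from those regions could not be assigned apart.

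Genes around the complex, from lists drawn up with the data known, showed no called change: none passed adjustment in either cell type by limma. Counts of higher and lower means, here and in the lists below, go by mean log2 values, which can differ in direction from mean counts. Of 18 other cadherins, 9 were tested in ameloblasts, where 5 had higher and 4 lower means in KO, and 7 in stratum intermedium, where 3 had higher and 4 lower means. Cdh23, of the inner ear tip links, had a mean of 143 (SD 103) in WT and 359 (SD 69.1) in KO ameloblasts (log2 difference 1.52, unadjusted p = 0.0252 by limma). Cdh15, of muscle, was 326 (SD 22.2) and 103 (SD 67.3) there (−2.01, unadjusted p = 0.0384 by limma). Cdh17 was low in stratum intermedium, listed at 0 in WT10, 7.66 in WT5, 52.1 in KO1, 17.2 in KO3 and 43.2 in KO9 (unadjusted p = 0.0428 by limma). Cdh4 had a log2 difference of 0.98 (SE 1.00) in ameloblasts and 1.5 (SE 1.91) in stratum intermedium, and Cdh5, of endothelium, 0.23 (SE 0.834) and 0.24 (SE 0.245).

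Of 9 other catenins and armadillo partners, 8 were tested, with higher means in KO for 4 in ameloblasts and 3 in stratum intermedium. Ctnna2, the neuronal alpha-catenin, was 4516 (SD 266) in WT and 2512 (SD 1260) in KO stratum intermedium (−1.01, unadjusted p = 0.0687 by limma). Arvcf, a relative of p120-catenin, was 452 (SD 102) and 321 (SD 37.2) in WT and KO ameloblasts. Ctnnal1 was 392 (SD 3.76) and 271 (SD 98.5) in WT and KO stratum intermedium. Jup, plakoglobin, was between 1721 and 2234 in ameloblasts, with a log2 difference of 0.04 (SE 0.226). Of 15 actin linkers, 7 had higher and 8 lower means in each cell type. Tjp1 (ZO-1) was 1993 (SD 493) in WT and 1224 (SD 248) in KO stratum intermedium (−0.70, unadjusted p = 0.0328 by limma), and Vezt, a transmembrane partner of cadherins, was 734 (SD 211) and 1141 (SD 135) (0.66, unadjusted p = 0.0433 by limma). Limd1 was 1012 (SD 49.7) and 1247 (SD 133) in WT and KO ameloblasts. Afdn (afadin) had −0.13 (SE 0.310) in ameloblasts and −0.13 (SE 0.250) in stratum intermedium.

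Of 16 genes of cadherin trafficking and turnover, 8 had higher and 8 lower means in ameloblasts and 3 and 13 in stratum intermedium. The protease Adam15 was 872 (SD 319) and 421 (SD 68.2) in WT and KO ameloblasts (−1.01, unadjusted p = 0.0202 by limma). Adam10, which sheds the outer part of E-cadherin, was 4513 (SD 1460) and 6545 (SD 1080), and the phosphatase Ptpn1 was 2004 (SD 329) and 1324 (SD 326). A further list held 14 genes, regulators of Cdh1 transcription together with the splicing factors Esrp1 and Esrp2. Of these, 6 had higher and 8 lower means in ameloblasts, and 8 and 6 in stratum intermedium. Grhl3, an epithelial transcription factor, was low, at 1.03 in WT10 and 28.0 in WT5 against 30.3 in KO1, 98.6 in KO3 and 46.0 in KO9 ameloblasts, so that its genotypes did not overlap (unadjusted p = 0.0701 by limma). Overlapping between the genotypes were the splicing factor Esrp1 (0.68, SE 0.382) and the factors Snai1 (−0.52, SE 0.322), Snai2 (0.19, SE 0.356), Zeb1 (−0.47, SE 0.334), Zeb2 (−0.06, SE 0.291) and Grhl2 (2.5, SE 1.59).

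The genes most like Cdh6 were sought by Pearson's r over the 10 libraries, centred within each table, among 15567 genes. They were Dsc3 (0.991), a desmosomal cadherin, Kcnh1 (0.968), Enpp2 (0.962), Slc39a8 (0.959) and Dsg1a (0.958), the last another desmosomal cadherin. Dsc3 itself was 1003 in WT10 and 1143 in WT5, and 2572 in KO1, 4616 in KO3 and 2987 in KO9 ameloblasts. It is part of the stratum intermedium and papillary layer markers. For Cdh1 they were Vangl2 (0.993), Myo19 (0.987), Krt8 (0.983), Kcnk1 (0.971) and Epb41l3 (0.957). Krt8, a keratin of simple epithelia, is also on the general epithelium list. These correlations are descriptions from libraries that share depth and makeup, and carry no p.

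**Figure D5:**
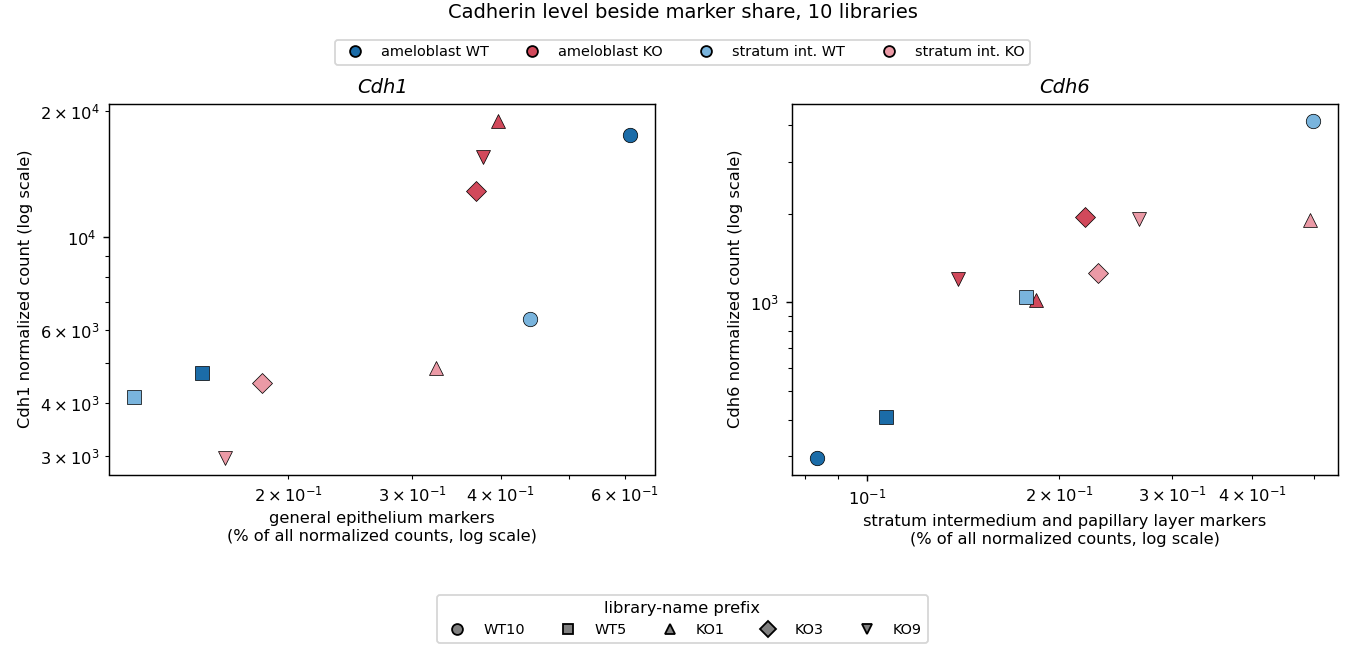
Left, Cdh1 normalized count beside the share of general epithelium markers in all counts. Right, Cdh6 normalized count beside the share of stratum intermedium and papillary layer markers, both on log axes with 1 point per library, colours for cell type and genotype and symbols for prefix. The WT5 ameloblast library is low on both axes for Cdh1, and the 2 WT ameloblast libraries are lowest on both axes for Cdh6.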

How the data were processed

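RNA was captured by laser from frozen hemi-mandible sections, and sequenced as stranded polyA libraries (TruSeq), per the labels' protocols. The authors deposited normalized counts, a signal per gene, in 1 table for each cell type, named as a DESeq2 normalized matrix on Ensembl release 101 with outliers left out, per the table names. No source used here says which ones. STAR 2.5.2b, featureCounts, DESeq, Picard 2.8.1 and FastQC were used on GRCm38, per the submitters' processing notes, which give no settings. Each listed gene reached 10 in 3 or more libraries, so high values in the 3 KO libraries sufficed for listing. All 9 members passed the filter below in both tables.

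Low values (under 40) lay near whole steps, within 0.05 of a step, in 26.4% to 53.5% of cases, so whole reads were not recovered, no count test was run and the depth is unknown. Library sums were 21006977 to 26856177. Library names tied columns to samples, and 0 columns were left unused. Labels do not say that replicates came from separate animals, and p-values reflect the spread among these libraries alone.

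KO and WT were compared within each table by two-sided limma 3.58.1 tests with a variance trend, in R 4.3.3. Values were log2(normalized count + 1), genes with a mean under 10 were left out, and p-values were adjusted by Benjamini-Hochberg over all genes, at 0.05. Fold changes on that scale understate changes of low genes. The difference between cell types used the layer difference of each prefix, with the variance trend on the mean of that difference. Levels per kb used exon lengths of GENCODE vM21 on GRCm38, where 16278 of 16292 and 16619 of 16638 identifiers were found. Shares, layer differences and correlations were computed in Python 3.11.15. The limma fits within each table were tested on simulated data with independent noise in each gene. The layer differences, shares and correlations were not tested in that way.

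The members, the gene lists and the rule for naming genes were chosen with earlier results of these data known. The rule named the 9 members, the 3 genes of each other list with the smallest unadjusted p in either cell type, 8 genes tied to a classical cadherin, and the 5 genes most like Cdh1 and Cdh6. The general epithelium list was added after the values were seen. Alternatives covered the pseudocount, filter, scaling, variance model, library weights, block, sex, gene length and each library left out.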

Additional observations from a re-analysis of the deposited data

How the results depend on the processing

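The log2 difference of Cdh6 in ameloblasts was 1.66 to 2.26 over the settings tried, a description of values on which the family was picked. Correlations of deviations between same-numbered replicates were 0.086 and −0.116 in ameloblasts, −0.186 and −0.133 in stratum intermedium. The highest were those of WT5 with KO3, at 0.273 and 0.186, which share group number 1. With 2 WT libraries, a KO library's correlations with them are equal and opposite in sign, so they cannot show whether replicates pair. Since pairing is not known, the replicate block is given only here. The block left 354 genes with an unadjusted p under 0.05 in ameloblasts against 498, and 185 in stratum intermedium against 340. Under the block the stratum intermedium differences of Cdh3, Cdh11 and Vcl became −0.02, −0.20 and 0.18. Replicate 3 is KO alone, so these are the same differences as without that library, KO9 in stratum intermedium. Likewise KO1 alone carries its library group number, so the library group gives the same differences as leaving out KO1. Library weights gave −0.07 and the library group −0.08 for Cdh3, and quantile normalization −0.02 for Cdh11. The difference between cell types of Ctnnb1 became 0.09 with the library group and 0.16 with sex, and that of Ctnnd1 0.03 with sex.

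With 1 library left out, genes with an unadjusted p under 0.05 ranged from 245 to 1490 in ameloblasts (1490 without WT5) and from 236 to 1714 in stratum intermedium (1714 without WT5), and from 583 to 1698 for the difference between cell types (1698 without WT5). Genes past adjustment in ameloblasts ranged from 0 to 1, the 1 without WT5 (adjusted p 0.0496). A single WT library is then assumed to vary like the KO group. Stratum intermedium differences ranged from −1.08 to 0.04 (Cdh2), −0.47 to 0.54 (Cdh3), −1.31 to 0.67 (Cdh6), −0.20 to 0.27 (Cdh11), −0.09 to 0.00 (Ctnna1), −0.25 to 0.02 (Ctnnd1) and −0.53 to 0.37 (Vcl). Differences between cell types ranged from −0.46 to 0.00 (Cdh11), −0.23 to 0.50 (Ctnna1), −0.23 to 0.09 (Ctnnb1) and −0.41 to 0.62 (Vcl). The Cdh1 share and the gap in the Cdh6 share depended on gene length: by coding length the Cdh1 share was 63.1% in KO ameloblasts, 35.8% in WT and 37.4% in KO stratum intermedium, and by the longest transcript 41.2% in WT stratum intermedium. With Cdh11 in the sum it was 63.9%, 31.5% and 29.1%. Other causes of these changes were not tested. With 2 WT libraries and unknown depth, small differences could not be detected.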

Other observations

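Ctnna2, the alpha-catenin known from neurons, was listed at a high level in ameloblasts. It was at 37732 normalized counts in WT10, 5957 in WT5, 39288 in KO1, 20309 in KO3 and 16422 in KO9, and at 4703, 4328, 3044, 3419 and 1073 in stratum intermedium in the same order. Per kb of exons its mean was 3446 (SD 2060, n = 5) in ameloblasts, against 819.9 (SD 130) for Ctnna1, and 476.9 (SD 204) in stratum intermedium, against 751.1 (SD 29.8) for Ctnna1. The tables were normalized separately. The ameloblast minus stratum intermedium log2 value was 2.73 (SD 1.38), positive in 5 of 5 prefixes and at the 99.7th percentile of all genes. The lowest was 0.46, in WT5. Its ameloblast values were singled out after they were seen.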
